A study of Mus musculus with 9 samples.

Results

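Ccl7 and 9 other genes for chemokines and secreted cytokines (Ccl2, Cxcl1, Cxcl5, Cxcl12, Cx3cl1, Csf1, Lif, Il6 and Il11) were followed in primary murine myoblasts, proliferating cells that fuse into skeletal muscle fibres. They are 10 of the 55536 genes of the deposited count table. The 10 symbols were chosen by name, with the differences between knockout and floxed cells in these same libraries, led by Ccl7, already known. Their levels and fold changes are therefore given as a description, with no test of their own.

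RNA sequencing counts came from 9 libraries in 3 groups of 3. Knockout oxybutynin libraries were from uqcrfs1 -/- cells given 7.5 µM oxybutynin, a drug that blocks muscarinic acetylcholine receptors, and knockout vehicle libraries from uqcrfs1 -/- cells given DMSO. Floxed vehicle libraries were from uqcrfs1 +/+ (floxed) cells given DMSO. Knockout cells had received an adenovirus for Cre recombinase and floxed cells an adenovirus for GFP, so genotype and virus cannot be told apart, and all cells had been infected. Cells were seeded 72 h after infection, treated 24 h later and cultured for 5 days in medium with horse serum, which can itself hold cytokines. No floxed cells received oxybutynin. The labels do not say whether the libraries came from separate cultures or animals, so the spread between libraries may be technical.

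Uqcrfs1, the Rieske iron-sulphur protein of mitochondrial complex III, checked the genotype labels. It averaged 2.56 ± 0.44 CPM (counts scaled to library size) in knockout oxybutynin and 2.45 ± 0.36 CPM in knockout vehicle, against 79.6 ± 3.7 CPM in floxed vehicle (SD, n = 3 each). Library totals ran from 19604971 to 26226949 counts. Of 15720 genes that passed the filter on low counts, 8 were among the 10 chemokine and cytokine genes, and Cxcl5 and Il6 did not pass it. A limit of 3 counts in a library corresponds to 0.118 to 0.153 CPM. The number of genes called with oxybutynin depended on knockout vehicle replicate 3 and on the method, and values without that library are given where they matter.

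Chemokines are small secreted proteins that guide migrating cells through G protein-coupled receptors. CCL2 and CCL7 act mainly on monocytes through CCR2, CXCL1 and CXCL5 on neutrophils through CXCR2, and CXCL12 on progenitor cells and leukocytes through CXCR4. CSF1 sustains macrophages, and LIF, IL-6 and IL-11 form part of the cytokine family that signals through the shared receptor subunit gp130 to JAK kinases and STAT3. In injured muscle, cytokines from myogenic and other resident cells recruit and instruct leukocytes.

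The most abundant of these transcripts was Csf1, and the one with the highest fold change was Ccl7. In knockout vehicle libraries, the levels per kilobase of exon ran in the order Csf1 (351 CPM per kilobase), Cxcl12 (48.4), Cx3cl1 (16.0), Ccl7 (12.7), Il11 (2.13), Ccl2 (2.11), Lif (0.743), Cxcl1 (0.326), Il6 (0.159) and Cxcl5 (0.00833). Il11 and Ccl2 overlapped in that order and every other pair of neighbours was separate. In floxed vehicle libraries, Csf1 (199 CPM per kilobase), Cxcl12 (36.3) and Cx3cl1 (15.6) held the same first places. Ccl7 lay in place 7 at 0.306 CPM per kilobase, overlapping Lif at 0.315. In knockout oxybutynin libraries Ccl7 was in place 4 at 10.7 CPM per kilobase, as in knockout vehicle, and separate from Cx3cl1 above it and Il11 below it. Csf1 and Cxcl12 together made up 96.6% of the summed CPM of the 10 genes in knockout oxybutynin, 96.4% in knockout vehicle and 95.4% in floxed vehicle.

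**Figure D1:**
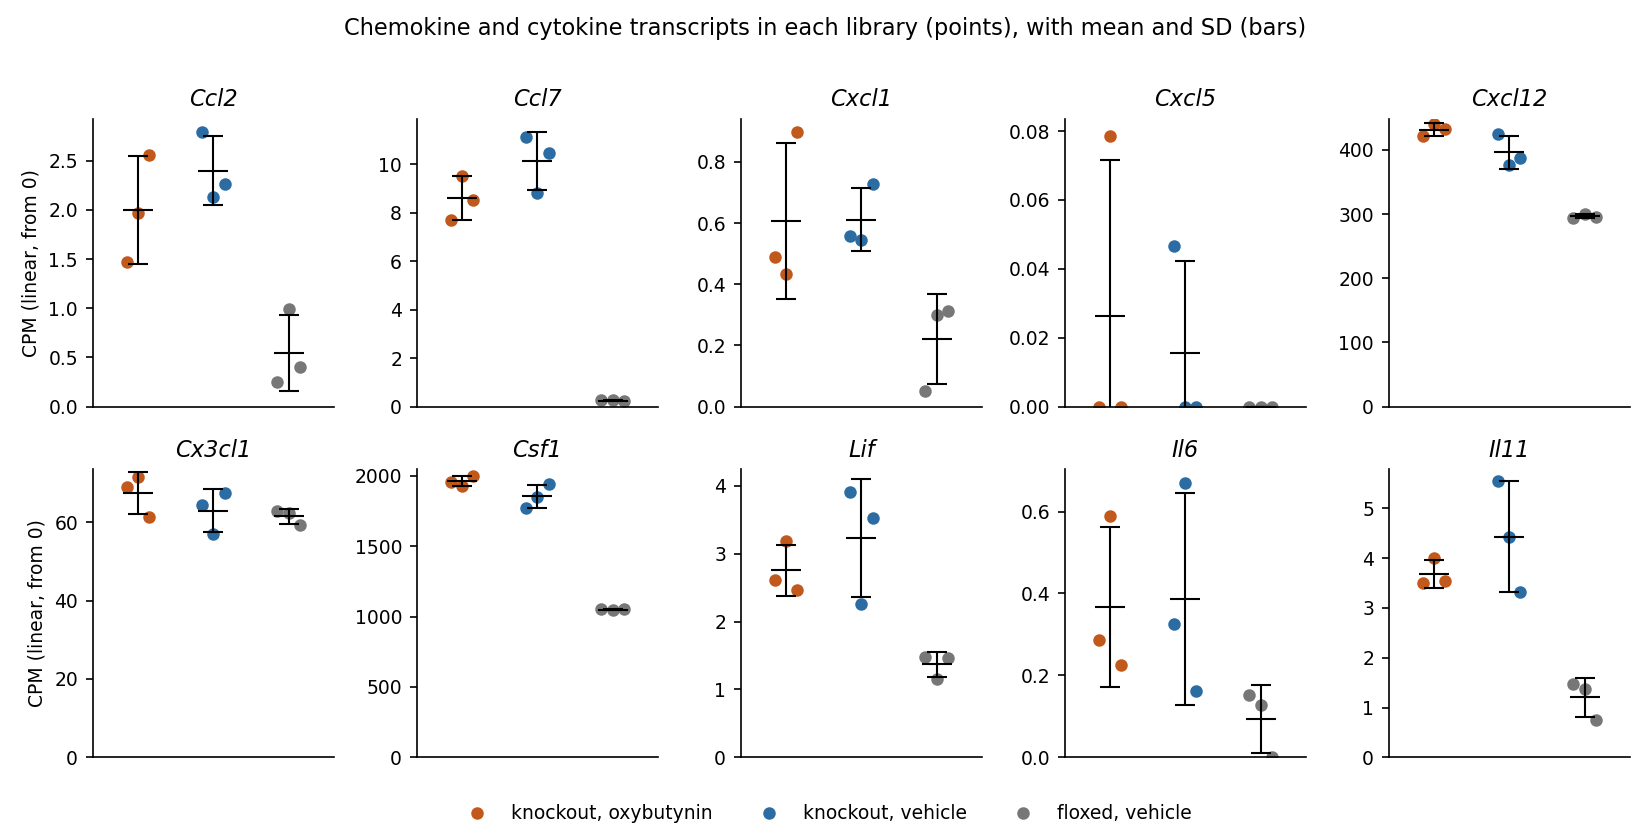
CPM (linear axes from 0) of the 10 genes in each library, with knockout oxybutynin on the left, knockout vehicle in the middle and floxed vehicle on the right of each panel; bars are the mean and SD of 3 libraries. In 8 panels both knockout groups lie above all floxed libraries, the exceptions being Cxcl5 and Cx3cl1, and in every panel the 2 knockout groups overlap.

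Of the 8 genes tested, 7 were called higher and 0 lower in knockout vehicle than in floxed vehicle (edgeR, adjusted p under 0.05 over all genes). Among all genes tested, 29.9% were called higher and 33.4% lower in that comparison, and nothing is read from the count because the genes were chosen on it. All 3 knockout vehicle libraries lay above all 3 floxed vehicle libraries for 8 of the 10 genes, against 31.2% of all genes tested. In knockout oxybutynin compared with floxed vehicle, 7 of 8 were called higher (35.1% of all genes tested) and 8 of 10 lay wholly above (38.9% of all genes tested). Both comparisons use the same 3 floxed libraries.

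Ccl7 (ENSMUSG00000035373), a CC chemokine for monocytes, had 189, 242 and 190 counts in knockout oxybutynin and 239, 211 and 258 in knockout vehicle, against 5, 6 and 5 in floxed vehicle. In CPM these were 7.71, 9.52 and 8.54 in knockout oxybutynin, 11.1, 8.83 and 10.4 in knockout vehicle, and 0.255, 0.258 and 0.222 in floxed vehicle. The 6 knockout libraries lay far above the floxed ones, which were just over the limit of 3 counts. Ccl7 was 40.5-fold higher in knockout vehicle than in floxed vehicle, a log2 fold change of 5.34 ± 0.23 (SE). It was 34.4-fold higher in knockout oxybutynin than in floxed vehicle (5.10 ± 0.23). By log2 fold change it stood in place 11 of 15720 genes in the first of these comparisons and in place 12 in the second. The SE was larger by other methods in both comparisons, at 0.39 with DESeq2 and 0.36 with limma-voom.

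Ccl2 (ENSMUSG00000035385), the neighbouring monocyte chemokine, had 36, 50 and 57 counts in knockout oxybutynin and 60, 51 and 56 in knockout vehicle, against 5, 23 and 9 in floxed vehicle. Every knockout library lay above every floxed library, and floxed replicate 2 carried most of the floxed counts. Knockout vehicle stood at a log2 fold change of 2.08 ± 0.36 over floxed vehicle, or 2.83 without floxed replicate 2. For knockout oxybutynin over floxed vehicle it was 1.81 ± 0.36, or 2.56 without that library. Ccl2 was thus 4.23-fold higher in knockout vehicle than in floxed vehicle where Ccl7 was 40.5-fold higher.

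Ccl2 and Ccl7 lie on the same strand in the monocyte chemokine cluster of chromosome 11 (GRCm38, GENCODE M21). Ccl2 occupies chr11:82035571-82037453 and Ccl7 chr11:82045712-82047525, both on the plus strand, with 8258 bases between them. The next genes, Ccl11, Ccl12 and Ccl8, start 22.3, 66.3 and 79.6 kb from the start of Ccl2. Ccl11 had at most 3 counts in any library, Ccl12 at most 1 and Ccl8 0. The counts of this stretch were thus on its first 2 genes, and transcripts of the other 3 were not detectable above the limit of 3 counts. A gene model on the opposite strand, Gm17268, covers the whole span of Ccl2 and had 0 counts in every library. The libraries were directional, per the labels' protocols, but whether strand was used in counting is not stated, so reads of the pair cannot be told apart. No 50-base stretch of Ccl2 or Ccl7 transcripts is shared with another gene's transcripts.

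**Figure D2:**
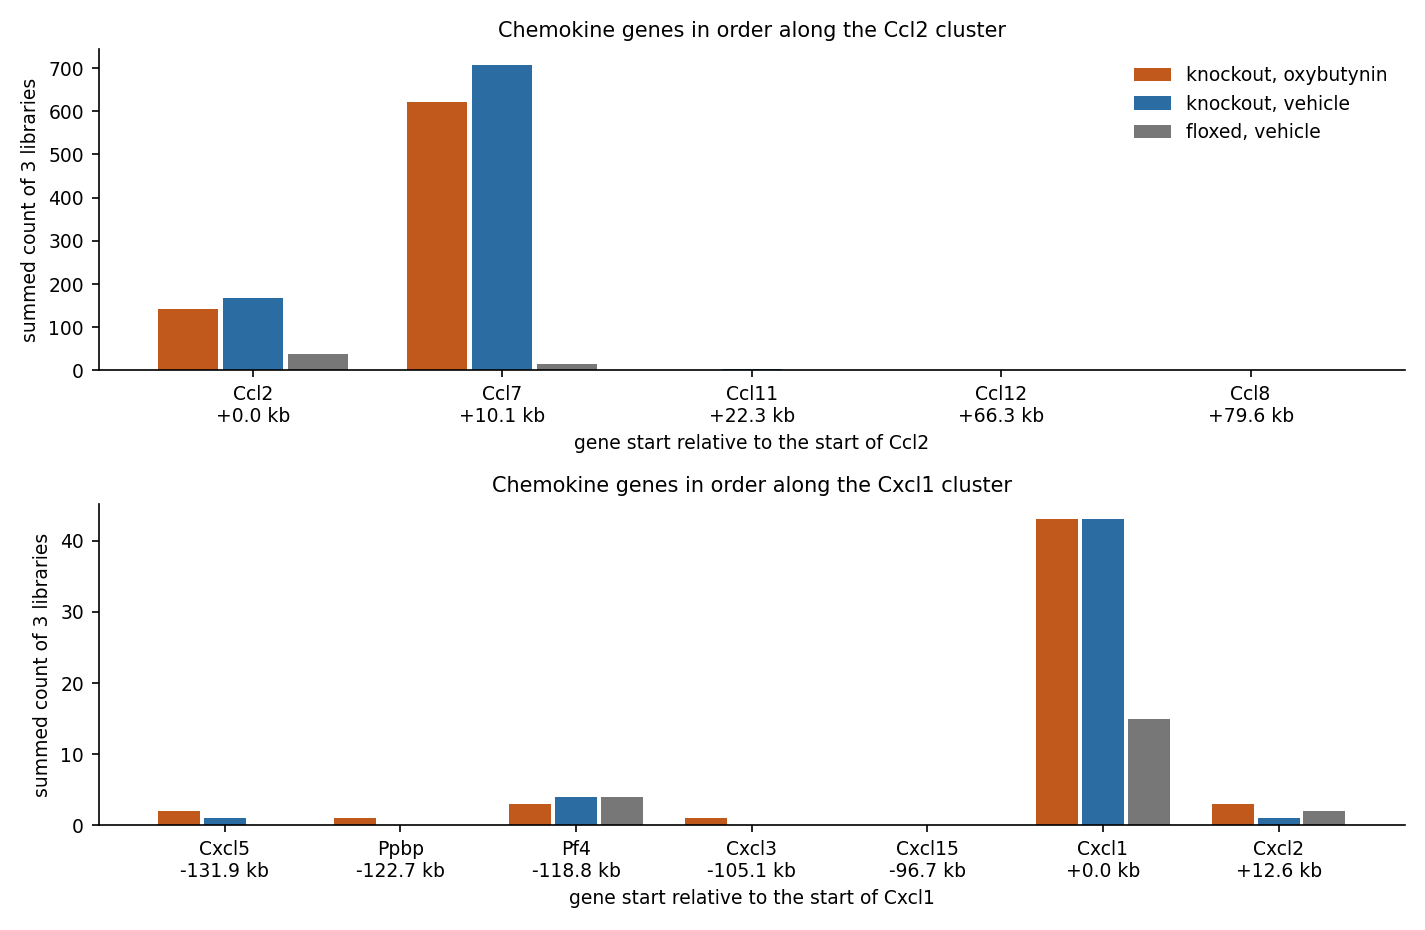
Summed counts of 3 libraries per group (linear axes from 0) for chemokine genes in order along the Ccl2 cluster (top) and the Cxcl1 cluster (bottom), labelled with the distance of each gene start from that of Ccl2 or Cxcl1 in kb; in each set of bars the order is knockout oxybutynin, knockout vehicle, floxed vehicle. Ccl7 and Ccl2 hold nearly all counts of the first cluster and Cxcl1 most counts of the second.

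Cxcl1 (ENSMUSG00000029380), a neutrophil chemokine, had 12, 11 and 20 counts in knockout oxybutynin and 12, 13 and 18 in knockout vehicle, against 1, 7 and 7 in floxed vehicle. The knockout libraries lay above the floxed ones at a depth of 20 counts or fewer. The log2 fold change was 1.40 ± 0.50 for knockout vehicle over floxed vehicle, but it was 0.99 and not called without floxed replicate 1, and 1.26 and not called without knockout vehicle replicate 3. For knockout oxybutynin over floxed vehicle it was 1.37 ± 0.50, and it was not called at 0.96 without floxed replicate 1 or at 1.01 without knockout oxybutynin replicate 3. Cxcl5 (ENSMUSG00000029371, chr5:90759360-90761624, plus strand), the other neutrophil chemokine followed here, had 0, 2 and 0 counts in knockout oxybutynin, 1, 0 and 0 in knockout vehicle, and 0 in each floxed vehicle library. All its values were under the limit of 3 counts, so no fold is given. In the Cxcl1 cluster on chromosome 5, Ppbp, Pf4, Cxcl3, Cxcl15 and Cxcl2 had at most 4 counts in any library, leaving Cxcl1 (chr5:90891241-90893115, plus strand) as the gene with most counts.

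Cxcl12 (ENSMUSG00000061353, chr6:117168535-117181367, plus strand), the ligand of CXCR4 and of the scavenging receptor ACKR3, was abundant in every group. It measured 421, 440 and 433 CPM in knockout oxybutynin and 425, 376 and 387 CPM in knockout vehicle, against 294, 300.3 and 296 CPM in floxed vehicle. The floxed libraries differed little among themselves and all lay below the knockout ones. Over floxed vehicle, the log2 fold change was 0.54 ± 0.07 in knockout oxybutynin and 0.42 ± 0.07 in knockout vehicle.

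Cx3cl1 (ENSMUSG00000031778, chr8:94772009-94782427, plus strand), a chemokine made as a membrane protein and released by ADAM10 and ADAM17, did not separate the groups. It measured 69.1, 71.6 and 61.5 CPM in knockout oxybutynin and 64.3, 56.9 and 67.5 CPM in knockout vehicle, against 62.9, 62.3 and 59.2 CPM in floxed vehicle. The log2 fold change of knockout vehicle over floxed vehicle was 0.03 ± 0.09, with a 95% interval of -0.15 to 0.22. Cx3cl1 had the highest exonic GC content of the 10 genes, 57.1%, against a median of 49.8% over protein-coding genes. With the trend of each library on GC content and length removed, its log2 fold change turned to -0.45 in knockout vehicle and to -0.53 in knockout oxybutynin, each over floxed vehicle and called lower.

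Across 12976 protein-coding genes, log2 fold changes moved with GC content (Spearman's rho 0.54 for knockout vehicle over floxed vehicle, 0.64 for knockout oxybutynin over floxed vehicle and 0.69 for knockout oxybutynin over knockout vehicle). These are correlations across genes of the same 9 libraries, and genes are not independent replicates. Ccl7, at 42.9% GC, and Ccl2, at 44.3%, lie below the median, and without the trend their log2 fold changes for knockout vehicle over floxed vehicle were 5.995 and 2.55. Csf1, Lif and Cxcl12 lie above it, and theirs were 0.45, 0.89 and 0.31.

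Csf1 (ENSMUSG00000014599, chr3:107741048-107760469, minus strand), the growth factor of macrophages, measured 1960.1, 1926 and 1999 CPM in knockout oxybutynin and 1773, 1853 and 1940 CPM in knockout vehicle, against 1052, 1047 and 1054 CPM in floxed vehicle. The knockout libraries were clear of the floxed ones, which spanned only a few CPM. Over floxed vehicle, Csf1 had a log2 fold change of 0.90 ± 0.07 in knockout oxybutynin and 0.82 ± 0.07 in knockout vehicle, or 0.42 and 0.45 without the trend on GC content (54.4% in Csf1) and length. In absolute terms this was the largest difference of the 10 genes, 805 CPM between knockout vehicle and floxed vehicle, against 9.89 CPM for Ccl7.

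Lif (ENSMUSG00000034394, chr11:4257557-4272514, plus strand), a cytokine of the gp130 family, had 64, 81 and 55 counts in knockout oxybutynin and 84, 54 and 87 in knockout vehicle, against 29, 27 and 33 in floxed vehicle. Its log2 fold change was 1.24 ± 0.24 for knockout vehicle over floxed vehicle. For knockout oxybutynin over floxed vehicle it was 1.01 ± 0.24, or 0.58 without the trend on GC content and length. Il11 (ENSMUSG00000004371, chr7:4772373-4782859, minus strand), another gp130 cytokine, had 86, 102 and 79 counts in knockout oxybutynin and 119, 106 and 82 in knockout vehicle, against 29, 32 and 17 in floxed vehicle. Its log2 fold changes over floxed vehicle were 1.88 ± 0.25 in knockout vehicle and 1.62 ± 0.25 in knockout oxybutynin. Both genes were higher in all 6 knockout libraries than in any floxed library. Of the 50-base stretches of Il11 transcripts, 3.13% are shared with other genes, so a small part of its reads could have been assigned elsewhere.

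Il6 (ENSMUSG00000025746, chr5:30013114-30019981, plus strand), the founding gp130 cytokine, had 7, 15 and 5 counts in knockout oxybutynin and 7, 16 and 4 in knockout vehicle, against 3, 3 and 0 in floxed vehicle. The groups did not overlap in CPM, but the lowest knockout value, 0.162 CPM, and the highest floxed value, 0.153 CPM, were 4 and 3 counts. Il6 failed the filter on low counts. In a fit without that filter its log2 fold change was 2.05 ± 0.69 for knockout vehicle over floxed vehicle and it was called higher.

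**Figure D3:**
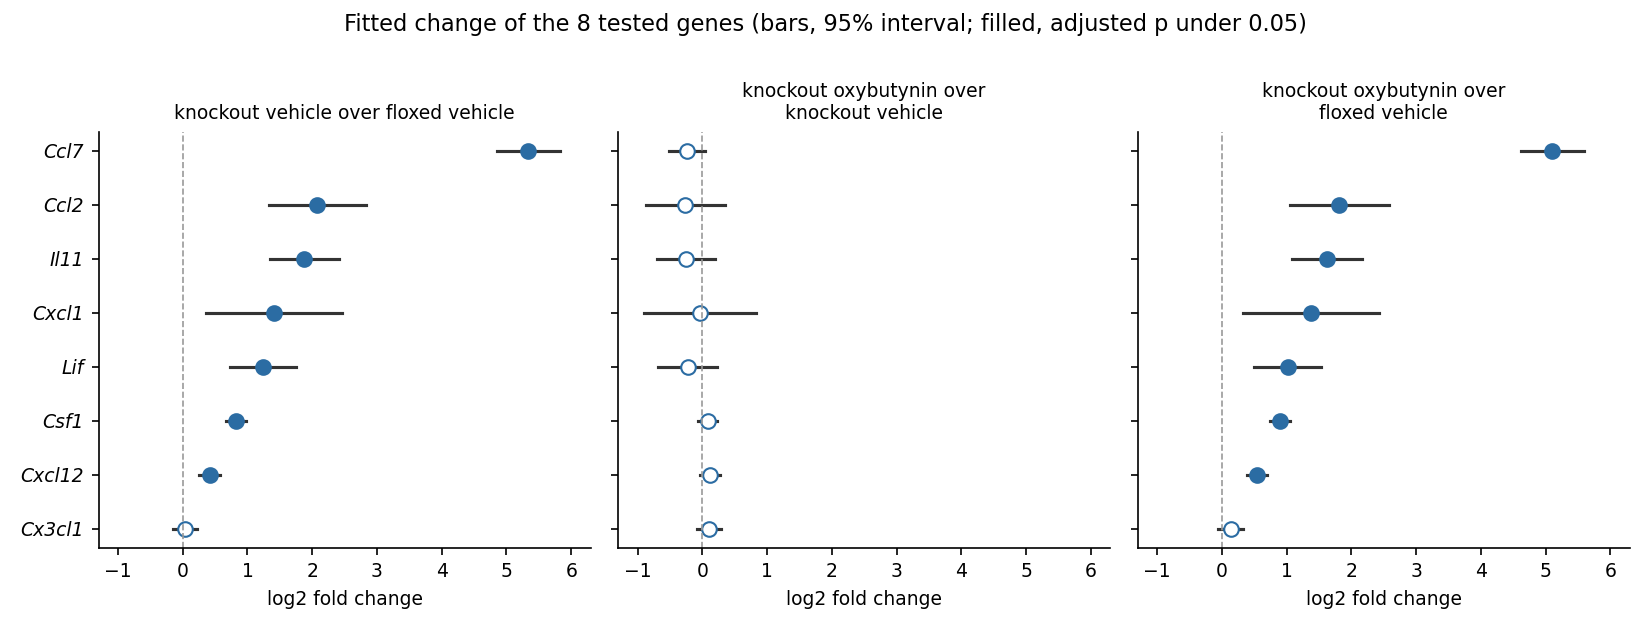
Log2 fold changes (x axis) of the 8 tested genes in the 3 comparisons; points are edgeR estimates, bars their 95% intervals, and filled points have an adjusted p under 0.05 over all genes. Ccl7 stands far to the right in both comparisons with floxed vehicle, and all 8 intervals of knockout oxybutynin over knockout vehicle cross 0.

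In knockout oxybutynin compared with knockout vehicle, 0 of the 8 genes were called and 0 had an unadjusted p under 0.05 by edgeR, and limma-voom called 0. DESeq2 called 0 as well, but it gave no adjusted p for 5 of them (Ccl2, Ccl7, Cxcl1, Lif and Il11). Over all genes, 0.0127% were called (2 of 15720, AW551984 and Gm24616, named after their values were seen), and 4084 had an unadjusted p under 0.05. The groups overlapped for all 10 genes, whereas they did not overlap for 22.1% of all genes tested. Without knockout vehicle replicate 3, 4188 genes were called, and still 0 of the 9 of these genes then tested. The log2 fold change of Ccl7 was -0.24 ± 0.13, with a 95% interval of -0.52 to 0.04. The intervals ran from -0.88 to 0.35 for Ccl2, from -0.71 to 0.19 for Il11, from -0.68 to 0.23 for Lif and from -0.90 to 0.84 for Cxcl1. Those of the abundant genes were narrower, from -0.07 to 0.23 for Csf1, from -0.03 to 0.28 for Cxcl12 and from -0.09 to 0.29 for Cx3cl1. A log2 fold change of 1 in either direction lies outside every one of these edgeR intervals. For Cxcl1 the SE was larger with DESeq2, 0.53 against 0.41 with edgeR, so this is not firm for Cxcl1.

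**Figure D4:**
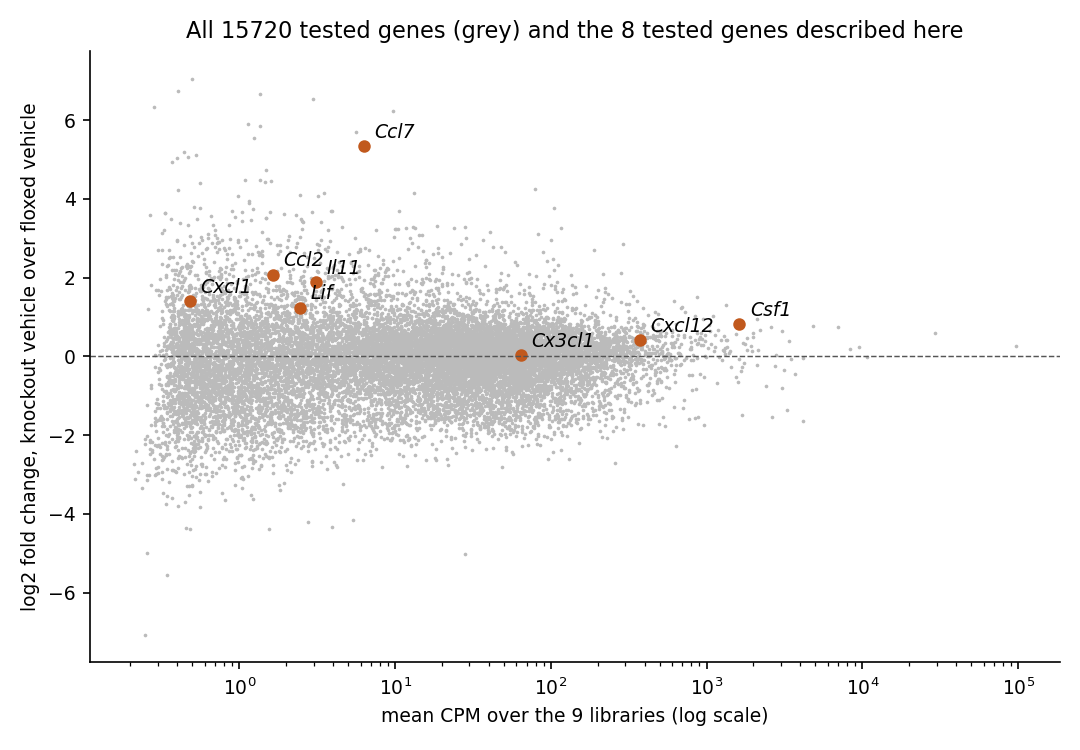
Log2 fold change of knockout vehicle over floxed vehicle against mean CPM over the 9 libraries (log axis) for all 15720 tested genes in grey, with the 8 tested chemokine and cytokine genes in colour. Ccl7 lies near the upper edge of the cloud at 5.34, while Csf1 (0.82) and Cxcl12 (0.42) lie among the abundant genes.

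Promoter sequences are shown where they held a match to a motif of an inflammatory or stress-activated factor, to let the matched letters be read in context. RefSeq promoters (GRCm38.p6, 250 bases before to 50 after the start) were found for 7 of the 10 genes, all but Ccl2, Ccl7 and Cxcl5, with 8 promoters in all since Il11 has 2. Both strands were searched for the NF-kB consensus, AP-1 (TGANTCA), a C/EBP-ATF element (TGATGNAA) and C/EBP (TTGCNNCAA or TTGCNNAA). In the stretches below, written 5′ to 3′ in the sense of the gene, capitals mark the matches, and overlapping matches run together.
Cxcl1, chr5:90891055-90891204, plus strand: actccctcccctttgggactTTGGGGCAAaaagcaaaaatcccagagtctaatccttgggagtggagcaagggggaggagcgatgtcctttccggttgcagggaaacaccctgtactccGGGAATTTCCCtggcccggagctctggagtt
Csf1, chr3:107760594-107760643, minus strand: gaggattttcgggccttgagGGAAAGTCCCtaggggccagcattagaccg
Lif, chr11:4257320-4257419, plus strand: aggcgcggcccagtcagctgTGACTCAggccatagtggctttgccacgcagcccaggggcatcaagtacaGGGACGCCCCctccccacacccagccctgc
Il6, chr5:30012864-30013099, plus strand: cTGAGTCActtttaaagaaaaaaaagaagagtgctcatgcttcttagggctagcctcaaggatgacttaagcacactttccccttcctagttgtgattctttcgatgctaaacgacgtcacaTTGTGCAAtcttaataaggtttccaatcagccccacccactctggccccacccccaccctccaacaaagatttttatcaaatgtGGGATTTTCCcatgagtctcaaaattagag
Il11, chr7:4778213-4778259, minus strand: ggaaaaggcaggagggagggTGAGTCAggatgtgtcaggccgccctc

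The NF-kB consensus matched in Cxcl1 (bases -71 to -62 from the start, and on the other strand -70 to -61, which overlap), Csf1 (-154 to -145), Lif (-178 to -169) and Il6 (-44 to -35). It is held by 8.46% of 32841 promoters of the same length. The AP-1 motif matched in Lif (-228 to -222), Il6 (-249 to -243) and Il11 (-98 to -92), against 7.81% of promoters. The C/EBP motif matched in Cxcl1 (-170 to -162) and Il6 (-128 to -121), against 12.6% of promoters. The C/EBP-ATF element, held by 3.97% of promoters, matched in none of the 8. The promoters of Cxcl12 and Cx3cl1 and the other promoter of Il11 held none of these letters. A match describes the sequence only, and binding was not measured.

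Receptor transcripts were set beside those of their ligands, and receptor protein and signalling were not measured. Ccr2, the receptor of CCL2 and CCL7, had 0 counts in all 9 libraries, and Cxcr2, the receptor of CXCL1 and CXCL5, had at most 2. Of the 23 chemokine receptors listed, 4 were tested. Of these, 1 was called higher and 2 lower in knockout vehicle than in floxed vehicle (29.9% and 33.4% of all genes tested). The median log2 fold change was -0.22, against -0.01 over all genes. Cxcr4 fell to 16.5, 14.2 and 14.7 CPM in knockout vehicle, with 12.1, 14.5 and 15.5 CPM in knockout oxybutynin, against 26.7, 26.2 and 25.97 CPM in floxed vehicle. The log2 fold change of Cxcr4 in knockout vehicle over floxed vehicle was -0.79 ± 0.11 (edgeR adjusted p = 5.48e-06). Ackr3 fell as well, to 35.7 ± 1.5 CPM in knockout vehicle, against 54.0 ± 4.1 CPM in floxed vehicle (SD, n = 3 each; log2 fold change -0.60 ± 0.09, edgeR adjusted p = 1.79e-05). Both receptors of CXCL12 were thus lower in the knockout cells in which Cxcl12 was higher.

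Cx3cr1, the receptor of CX3CL1, had 27, 22 and 24 counts in knockout oxybutynin and 24, 10 and 24 in knockout vehicle, against 5, 3 and 5 in floxed vehicle. It rose in knockout vehicle over floxed vehicle by a log2 fold change of 2.03 ± 0.46 (edgeR adjusted p = 0.00102) and its floxed counts were near the limit of 3. Csf1r, the receptor of CSF1, had 14, 10 and 7 counts in knockout oxybutynin and 10, 12 and 12 in knockout vehicle, against 3, 6 and 5 in floxed vehicle. Its log2 fold change in knockout vehicle over floxed vehicle was 1.16 ± 0.44 (edgeR adjusted p = 0.0289), a call lost in 8 of 18 alternative settings. For knockout oxybutynin over floxed vehicle it was 0.99 and not called (edgeR adjusted p = 0.0571). The transcripts of both leukocyte-type receptors were present at under 1.2 CPM in every library.

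**Figure D5:**
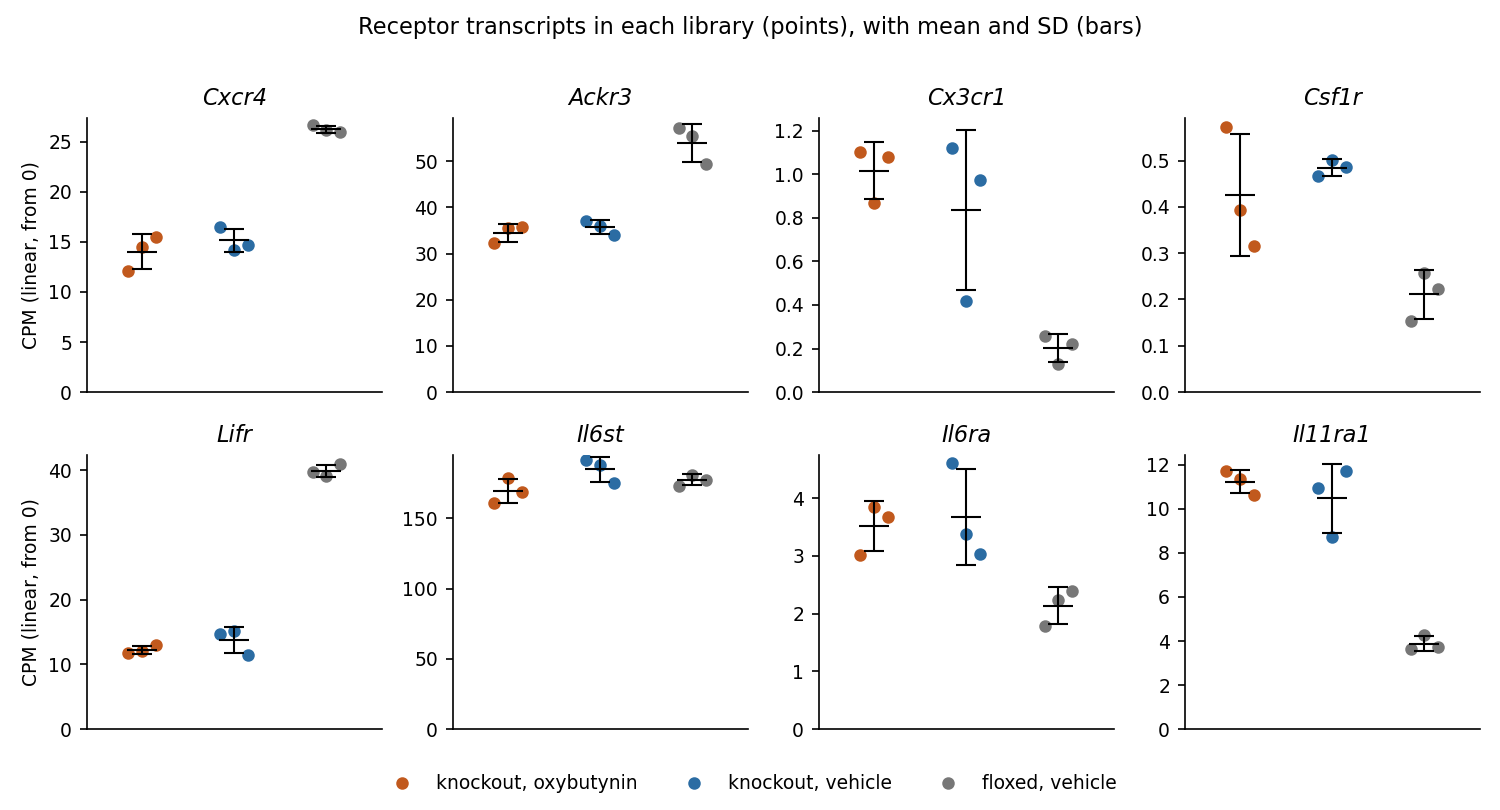
CPM (linear axes from 0) of receptor transcripts in each library, with knockout oxybutynin on the left, knockout vehicle in the middle and floxed vehicle on the right of each panel; bars are the mean and SD of 3 libraries. Cxcr4, Ackr3 and Lifr are lower in both knockout groups, Il11ra1, Cx3cr1, Csf1r and Il6ra are higher, and Il6st overlaps between groups. Csf1r was not called in knockout oxybutynin over floxed vehicle.

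Receptor subunits of the gp130 cytokines went in different directions. Il6st, which encodes gp130 itself, measured 169 ± 8.8 CPM in knockout oxybutynin and 185 ± 8.7 CPM in knockout vehicle, against 177 ± 3.9 CPM in floxed vehicle (SD, n = 3 each), and it was not called. With the GC and length trend removed it was called higher than in floxed vehicle, at 0.30 in knockout oxybutynin and 0.29 in knockout vehicle. Lifr, which pairs with gp130 for LIF, fell to 14.8, 15.1 and 11.4 CPM in knockout vehicle, with 11.8, 12.0 and 12.9 CPM in knockout oxybutynin, against 39.8, 39.0 and 40.9 CPM in floxed vehicle. The log2 fold change of Lifr was -1.54 ± 0.11 (edgeR adjusted p = 2.25e-09), while that of its ligand Lif was 1.24 in the same comparison. Il11ra1, the IL-11 receptor, rose to 10.5 ± 1.6 CPM in knockout vehicle, against 3.89 ± 0.36 CPM in floxed vehicle (log2 fold change 1.43 ± 0.14, edgeR adjusted p = 1.54e-07). Il6ra rose by 0.77 ± 0.21 (edgeR adjusted p = 0.00411). Thus Il11 and Il11ra1 were both higher in knockout vehicle, whereas Lif was higher and Lifr lower.

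Of the 12 cytokine receptors tested, 8 were called higher and 2 lower in knockout vehicle than in floxed vehicle. Among all genes tested, 29.9% were called higher and 33.4% lower. The median log2 fold change was 0.93. With the GC and length trend removed 8 were called higher and 2 lower (median 0.71). Both receptors of tumour necrosis factor were among those called higher. Tnfrsf1b rose by 1.52 ± 0.11 (edgeR adjusted p = 2.8e-09) and Tnfrsf1a by 0.83 ± 0.08 (edgeR adjusted p = 1.08e-07).

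Other chemokines were few in these cells. Of 31 listed, 8 had 0 counts in all libraries and 7 were tested. Of the 7, 1 was called higher and 2 lower in knockout vehicle than in floxed vehicle (29.9% and 33.4% of all genes tested). The median log2 fold change was 0.51. With the GC and length trend removed 3 were called higher and 1 lower (median 0.46). Cxcl10, an interferon-induced chemokine, was higher by 1.30 ± 0.47 (edgeR adjusted p = 0.0232) and Cxcl14 lower by a log2 fold change of -0.97 ± 0.36 (edgeR adjusted p = 0.026), each losing its call when any of 4 libraries was left out. Ccl25 was lower (-0.41 ± 0.12, edgeR adjusted p = 0.00885), but it turned to 0.62 and was called higher with the GC and length trend removed.

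Of 19 other cytokines, 9 were tested. Of the 9, 3 were called higher and 3 lower in knockout vehicle than in floxed vehicle (29.9% and 33.4% of all genes tested). The median log2 fold change was 0.10. With the GC and length trend removed 4 were called higher and 1 lower (median 0.28). Mif, macrophage migration inhibitory factor, averaged 413 CPM in knockout oxybutynin and 310.3 CPM in knockout vehicle, against 188 CPM in floxed vehicle, and rose by 0.72 ± 0.13 in knockout vehicle (edgeR adjusted p = 0.000154). Ctf1, cardiotrophin 1 of the gp130 family, rose by 0.78 ± 0.14 (edgeR adjusted p = 9.35e-05). Kitl, stem cell factor, had a log2 fold change of -0.81 ± 0.12 (edgeR adjusted p = 1.95e-05) and Il33, an alarmin, of -0.46 ± 0.11 (edgeR adjusted p = 0.0014), and neither was called with the GC and length trend removed. Tnf and Il1b, which induce many chemokines, had at most 6 counts each in any library (named after their values were seen).

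Among genes that read gp130 signals, 13 JAK-STAT genes were tested. Of the 13, 6 were called higher and 2 lower in knockout vehicle than in floxed vehicle (29.9% and 33.4% of all genes tested). The median log2 fold change was 0.40. With the GC and length trend removed 3 were called higher and 2 lower, with a median of -0.02. Stat3 had 50.2, 51.6 and 52.9 CPM in knockout oxybutynin and 52.0, 55.1 and 53.7 CPM in knockout vehicle, against 28.3, 27.1 and 30.0 CPM in floxed vehicle (log2 fold change of knockout vehicle over floxed vehicle 0.91 ± 0.08, edgeR adjusted p = 4.7e-08). Stat5a rose by 1.01 ± 0.11 (edgeR adjusted p = 3.8e-07), the STAT5 target Cish by 1.29 ± 0.18 (edgeR adjusted p = 7.66e-06) and Tyk2, a JAK kinase, by 0.49 ± 0.10 (edgeR adjusted p = 0.000271), the last not called with the GC and length trend removed.

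Genes for the factor families whose motifs were searched, and for NF-kB targets, went in both directions. Whether these factors act on the 10 genes was not tested. Of 19 NF-kB subunits and targets, 8 were called higher and 5 lower in knockout vehicle than in floxed vehicle. Among all genes tested, 29.9% were called higher and 33.4% lower. The median log2 fold change was 0.18. With the GC and length trend removed 7 were called higher and 5 lower (median 0.05). Icam1, an adhesion molecule for leukocytes, had 50, 61 and 47 counts in knockout oxybutynin and 60, 57 and 83 in knockout vehicle, against 9, 7 and 10 in floxed vehicle (log2 fold change 2.82 ± 0.28, edgeR adjusted p = 1.12e-07). Bcl3 rose by 1.43 ± 0.14 (edgeR adjusted p = 7.05e-08) and Ikbkg, a subunit of the IkB kinase complex, by 1.00 ± 0.09 (edgeR adjusted p = 2.54e-08). The subunit Rel fell, with a log2 fold change of -1.43 ± 0.15 (edgeR adjusted p = 2.53e-07), or -0.73 with that trend removed. Some calls for knockout vehicle over floxed vehicle reversed with that trend removed (named after their values were seen). Rela turned from 0.33 to -0.19, Nfkb1 from -0.33 to 0.21 and Ptgs2 from -0.42 to 0.45.

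Of 14 AP-1, C/EBP and ATF factors tested, 9 were called higher and 1 lower in knockout vehicle than in floxed vehicle. Among all genes tested, 29.9% were called higher and 33.4% lower. The median log2 fold change was 0.92. With the GC and length trend removed 9 were called higher and 3 lower (median 0.50). Ddit3, the stress-induced factor CHOP, averaged 56.5 ± 5.5 CPM in knockout oxybutynin and 47.6 ± 5.0 CPM in knockout vehicle, against 6.13 ± 0.57 CPM in floxed vehicle (SD, n = 3 each; log2 fold change of knockout vehicle over floxed vehicle 2.96 ± 0.12, edgeR adjusted p = 5.74e-12). Atf3, an early stress factor, rose by 2.37 ± 0.16 (edgeR adjusted p = 1.04e-09), Atf4, the factor of the integrated stress response, by 1.13 ± 0.09 (edgeR adjusted p = 6.81e-09) and Fosl2, an AP-1 subunit, by 0.91 ± 0.08 (edgeR adjusted p = 1.54e-08). Other AP-1 subunits did not all rise (named after their values were seen). Jun was the factor called lower (-0.48, edgeR adjusted p = 0.00166), or -0.93 with that trend removed. Fosb was called higher (0.44), but not with that trend removed. Junb (-0.21), Fosl1 (0.07) and Fos (0.07) were not called. With that trend removed Junb (-0.70) and Fosl1 (-0.39) were called lower.

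Genes for the handling of cytokine transcripts and proteins went in both directions. Of 10 genes for cytokine mRNA decay and stability, 2 were called higher and 4 lower in knockout vehicle than in floxed vehicle. Among all genes tested, 29.9% were called higher and 33.4% lower, and nothing is read from the count. The median log2 fold change was -0.05. With the GC and length trend removed 1 was called higher and 5 lower (median -0.23). The 1 called higher was then Elavl1 (0.27, named after its values were seen), whose protein stabilises such mRNAs. Rc3h1, which encodes roquin 1, a protein that marks cytokine mRNAs for decay, fell to 56.0 ± 6.0 CPM in knockout vehicle, with 50.6 ± 3.2 CPM in knockout oxybutynin, against 186 ± 2.8 CPM in floxed vehicle (log2 fold change of knockout vehicle over floxed vehicle -1.73 ± 0.09, edgeR adjusted p = 5.3e-11). Zc3h12c (-1.46 ± 0.11, edgeR adjusted p = 3.41e-09), Hnrnpd (-1.16 ± 0.10, edgeR adjusted p = 2.3e-08) and Rc3h2 (-1.47 ± 0.09, edgeR adjusted p = 5.8e-10) fell too. With that trend removed the log2 fold changes were nearer 0, at -0.83 for Rc3h1, -0.67 for Zc3h12c and -0.38 for Hnrnpd, and Rc3h2 was at -0.08 and not called. The 2 called higher were Zfp36l2 (0.53, edgeR adjusted p = 2.16e-05) and Zc3h12a (0.41, edgeR adjusted p = 0.00609), named after their values were seen. Neither was called with that trend removed.

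Of 6 tested genes for ectodomain shedding and chemokine processing, 2 were called higher and 2 lower (29.9% and 33.4% of all genes tested). The median log2 fold change of knockout vehicle over floxed vehicle was 0.10. With the GC and length trend removed 2 were called higher and 4 lower (median -0.20). Adam10 (-1.10 ± 0.08, edgeR adjusted p = 2.7e-09) and Adam17 (-0.58 ± 0.10, edgeR adjusted p = 9.57e-05), which release CX3CL1 from the membrane, fell in knockout vehicle compared with floxed vehicle. With that trend removed the log2 fold change was -0.44 for Adam10 and -0.22 for Adam17. Mmp2, a protease that trims CCL7 and CXCL12, rose by 1.59 ± 0.10 (edgeR adjusted p = 6.57e-10), and Rhbdf2, a trafficking partner of ADAM17, by 1.04 ± 0.10 (edgeR adjusted p = 8.54e-08). With that trend removed the rise was 1.14 for Mmp2 and 0.56 for Rhbdf2. Of 6 genes of glucocorticoid and anti-inflammatory feedback, 4 were called higher and 1 lower (29.9% and 33.4% of all genes tested). The median log2 fold change was 0.60. With the GC and length trend removed 4 were called higher and 0 lower (median 0.48). The clock gene Per1 (1.40 ± 0.09, edgeR adjusted p = 9.82e-10), Hsd11b1, which makes active glucocorticoid (1.88 ± 0.26, edgeR adjusted p = 8.04e-06), and Tsc22d3, a glucocorticoid target (0.69 ± 0.12, edgeR adjusted p = 7.75e-05), rose. Nr3c1, the glucocorticoid receptor, fell (-0.42 ± 0.10, edgeR adjusted p = 0.00147) but turned to 0.32 and was called higher with the GC and length trend removed.

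With oxybutynin over vehicle in knockout cells, 0 of the 100 tested genes in these 10 lists were called by edgeR, although 32 had an unadjusted p under 0.05. Over all genes tested, 25.98% had an unadjusted p under 0.05. DESeq2 called 12 of the 100 (7.21% of all genes) and gave no adjusted p for 30, and limma-voom called 0. Without knockout vehicle replicate 3, edgeR called 40 of 102 (26.02% of all genes).

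The genes most like Ccl7 across the 9 libraries, among 8966 genes that averaged 10 CPM or more, were Ppp1r27, Nqo1, Ckmt2, Gsta4 and Ampd3. Pearson correlations of their log2 CPM with that of Ccl7 were 0.999, 0.998, 0.998, 0.998 and 0.998. The points share libraries and fall into 2 sets, 6 knockout and 3 floxed, and 1779 genes had a correlation above 0.9. Over the 6 knockout libraries alone the correlations were 0.83 for Ppp1r27, 0.49 for Nqo1, 0.88 for Ckmt2, 0.57 for Gsta4 and 0.32 for Ampd3. Nqo1 is a quinone reductase, Gsta4 a glutathione transferase, Ckmt2 the mitochondrial creatine kinase of muscle and Ampd3 an AMP deaminase.

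Markers of other cell types that make these cytokines were set beside the results, because a bulk library cannot tell fewer cells of a type from less RNA per cell. The 10 myoblast markers summed to a median of 5848 CPM in knockout oxybutynin and 5686 CPM in knockout vehicle, against 5080 CPM in floxed vehicle. Of these, 4 were called higher and 3 lower in knockout vehicle than in floxed vehicle (29.9% and 33.4% of all genes tested). With the GC and length trend removed 4 were called higher and 4 lower. Cdh15, a muscle cadherin (-0.88 ± 0.10, edgeR adjusted p = 9.23e-07), and Myog, a factor of differentiation (-0.55 ± 0.09, edgeR adjusted p = 2.27e-05), fell, while Ncam1 (0.34 ± 0.07, edgeR adjusted p = 0.000654) and Des, a muscle filament protein (0.43 ± 0.10, edgeR adjusted p = 0.000923), rose, the last not called with that trend removed. Myf5 was the other marker called lower (-0.39 ± 0.09, edgeR adjusted p = 0.00103, named after its values were seen), and it turned to 0.35 and was called higher with that trend removed. The 9 fibroblast markers summed to between 149 and 161 CPM in knockout oxybutynin and between 145 and 160 CPM in knockout vehicle, against 67.2 to 69.7 CPM in floxed vehicle. Of 6 fibroblast markers tested, 5 were called higher in knockout vehicle than in floxed vehicle (29.9% of all genes tested). They were led by Cd34 (2.30 ± 0.12, edgeR adjusted p = 5.77e-11), while Lum was at 0 in all libraries and Dcn had at most 11 counts. Pdgfra was tested and not called in that comparison (0.26, edgeR adjusted p = 0.281, named after its values were seen).

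The 11 leukocyte markers summed to between 19.2 and 21.2 CPM in knockout oxybutynin and between 16.4 and 20.2 CPM in knockout vehicle, against 10.4 to 10.95 CPM in floxed vehicle. Of the 5 tested, 2 were called higher in knockout vehicle than in floxed vehicle (29.9% of all genes tested). These were Cd68 (1.19 ± 0.13, edgeR adjusted p = 4.16e-07) and Lyz2 (0.49 ± 0.18, edgeR adjusted p = 0.0229). Ptprc, the defining leukocyte marker, had 2, 1 and 4 counts in knockout oxybutynin and 0, 0 and 2 in knockout vehicle, against 2, 8 and 3 in floxed vehicle. The 6 endothelial markers summed to between 2.69 and 3.42 CPM in knockout oxybutynin and between 2.68 and 3.45 CPM in knockout vehicle, against 2.22 to 3.39 CPM in floxed vehicle, and for knockout vehicle over floxed vehicle the lowest edgeR adjusted p of the 3 tested was 0.125, for Pecam1. The part of fibroblast markers in the higher chemokine and cytokine levels of knockout cells was not tested.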

How the data were processed

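Gene counts were deposited by the authors as whole numbers, not normalized, for 9 libraries. The submitters' processing notes name STAR 2.7.0e, Trim Galore 0.6.0, FastQC, cutadapt and DESeq2 1.26.0, and as builds GRCm38 and mm10. For the counting step and its annotation, tool and release are not given in these sources. All 55536 IDs were found in GENCODE M21, which gave positions, exon lengths and GC content. No column lacked a sample.

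Genes were kept by filterByExpr (15720 genes), scaled by TMM and tested by the quasi-likelihood method of edgeR 4.0.16 in R 4.3.3, with 1 mean per group over all 9 libraries (6 residual degrees of freedom) and Benjamini-Hochberg adjustment over all tested genes. Genes were called at an adjusted p under 0.05. CPM are per TMM-scaled library. The SE and intervals of log2 fold changes were worked back from the F statistic of the edgeR test, not estimated directly. The code was tested on simulated data. Correlations used log2 CPM with a prior count of 2. Replicates of a group differed by more than sampling noise, and unequally between groups. Chi-square per degree of freedom of replicate pairs was 2.05 to 3.10 in floxed vehicle. It was 16.6 to 52.0 in knockout vehicle and 7.07 to 16.1 in knockout oxybutynin. The fit shared 1 estimate of the spread, so intervals between the knockout groups may be too narrow.

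The 10 genes, the other lists and the tests were chosen with earlier results of these data known. Named genes were the 10, Uqcrfs1, their receptors, the called genes of lowest adjusted p in each list (at most 4), and the 5 genes most like Ccl7. A gene that this rule names among the cytokine receptors is not reported here. Where a symbol (Ddit3) had 2 IDs, the one with more counts was used. Alternatives were DESeq2 1.42.0, limma-voom (limma 3.58.1), RLE, library totals, no filter, a mean of at least 1 CPM, only the 2 groups compared, removal of the GC and length trend, an adjusted p under 0.01, removal of mitochondrial genes and ribosomal RNA loci, and leaving out each library.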

Additional observations from a re-analysis of the deposited data

How the results depend on the processing

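The number of the 10 genes called stayed at 6 to 8 in both comparisons with floxed vehicle and at 0 for oxybutynin over vehicle in knockout cells, under each of 19 alternatives. The number of all genes called with oxybutynin in knockout cells was not stable. It was 2 as reported, 7 with RLE, 158 with library totals, 1133 with DESeq2, 1099 with no filter, 6 without mitochondrial genes and ribosomal RNA loci, and 0 at an adjusted p under 0.01 or with the GC and length trend removed. With 1 library left out it ran from 0 to 4188, and the highest came without knockout vehicle replicate 3; the cause was not tested. Cx3cl1 turned to a log2 fold change of -0.4518 in knockout vehicle and -0.5305 in knockout oxybutynin, each over floxed vehicle, with the GC and length trend removed. In a fit of only 2 groups it was called higher in knockout oxybutynin, at 0.17. No paired analysis was possible because the labels number the libraries in 1 run and give groups no shared replicate numbers. Cxcl1, Cxcl5 and Il6, at 20 counts or fewer in any library, are limited by depth.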
